A study of Mus musculus with 12 samples.

Results

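The cyclic nucleotide phosphodiesterase genes described here are Pde10a, Pde2a, Pde1a, Pde1b, Pde1c, Pde4b, Pde4d, Pde7b, Pde8b and Pde9a. They were chosen by symbol, as 10 rows of the 23282 gene rows that each count table lists, and all 10 passed the filter on low counts in every comparison. Total RNA of R6/2 HD mice and of WT littermates was sequenced from 2 brain regions, striatum and cortex, before and after the onset of symptoms, which the labels place at 8 and 13 weeks of age. R6/2 mice carry a transgene with exon 1 of the human HTT gene and an expanded CAG repeat under the human HTT promoter, so the transgene is not confined to 1 brain region or cell type, and WT littermates lack it. Each HD group (13-week striatum, 13-week cortex, 8-week striatum and 8-week cortex) had 2 libraries, and each of the 4 matching WT groups had 1 library. No mouse received a treatment, the labels do not name the strain background, and they do not say whether a striatum and a cortex with the same replicate number came from 1 mouse.

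Cyclic nucleotide phosphodiesterases hydrolyse the second messengers cAMP and cGMP and so set how long a signal from an adenylyl or guanylyl cyclase lasts. PDE10A, PDE2A and the PDE1 enzymes accept both nucleotides, PDE4, PDE7 and PDE8 enzymes prefer cAMP, and PDE9A prefers cGMP. Medium spiny neurons, the main projection neurons of the striatum, are known for high PDE10A and PDE1B, which act downstream of dopamine receptors, and PDE7B is also a known striatal isoform. These 3 genes are called the striatal isoforms below and the remaining 7 are called the other members.

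The libraries held between 8814386 and 12091201 counts, and levels are given as CPM, counts scaled to 1 common library size with TMM factors, which make libraries of different composition comparable. The members held between 2 and 12832 counts in a library. Replicate 2 of pre-symptomatic HD striatum stood apart from the other 5 striatal libraries. Its 8 oligodendrocyte markers summed to 20930 CPM against 3391 to 7311 in the others, its 6 thalamus markers to 1053 CPM against 40.9 to 122, and its 5 choroid plexus markers to 950.0 CPM against 2.67 to 116. Its 9 cortical neuron markers summed to 418 CPM against 75.6 to 205 in the others, and to 1269 to 1993 CPM in cortex. Its 11 striatal neuron markers summed to 3336 CPM, where the other pre-symptomatic HD library and the WT libraries of striatum lay between 8199 and 8993. Drd2 and Gpr6, both defining genes of striatal neurons, were at or near 0 in every library, with at most 4 and 2 counts, while 9 other striatal markers were higher in striatum than in cortex. Results that rest on replicate 2 of pre-symptomatic HD striatum are given with and without it, and leaving it out leaves 1 library in its group, which is then assumed to vary like the other groups. The ribosomal precursor Rn45s took 10.5% to 15.2% of counts in HD libraries and 4.32% to 5.62% in WT libraries. By the counts of Xist against the Y-linked gene Ddx3y, replicate 1 of each HD group was male and replicate 2 female, and WT mice were female at 13 weeks and male at 8 weeks.

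The striatal isoforms were all higher in striatum than in cortex, and so were 3 of the other members, while Pde1a was lower. Of all 14706 genes tested over the 12 libraries, in a fit of region and of genotype by age, 20.6% passed an adjusted p of 0.05 (edgeR, quasi-likelihood, Benjamini-Hochberg), 8.51% as higher in striatum and 12.1% as lower. Of the 10 members, 7 passed, 6 as higher and 1 as lower. The median log2 fold change of the members was 0.64 and that of all genes tested was 0.01.

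Pde10a, which encodes the dual-specificity enzyme of medium spiny neurons, had 271 CPM in 8-week WT striatum and 295 CPM in 13-week WT striatum, and 7.89 and 12.9 CPM in the matching cortex. In HD striatum it had 427 and 162 CPM at 8 weeks and 58.6 and 59.2 CPM at 13 weeks, and in HD cortex it lay between 11.9 and 19.7 CPM. Every striatal library was thus above every cortical library, and the 2 post-symptomatic HD libraries were the lowest of the striatum. The log2 fold change of Pde10a between striatum and cortex was 3.61 (SE 0.586, adjusted p = 0.00297).

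Pde1b, a calmodulin-activated enzyme, had 1174 and 1224 CPM in WT striatum at 8 and 13 weeks. In HD striatum it had 1069 and 404 CPM at 8 weeks and 195 and 228 CPM at 13 weeks. In cortex it had 118 and 139 CPM in the WT libraries and 84.9 to 98.8 CPM in the 4 HD libraries. Striatum and cortex did not overlap, with a log2 fold change of 2.50 (SE 0.363, adjusted p = 0.00115). Pde7b, a cAMP-specific enzyme, was measured at low counts, 44 to 176 per library in striatum and 2 to 38 in cortex. It had 13.8 and 16.8 CPM in WT striatum, 15.2 and 5.90 CPM in HD striatum at 8 weeks and 4.93 and 4.72 CPM at 13 weeks, and 0.177 to 3.97 CPM in cortex. Its log2 fold change was 2.35 (SE 0.444, adjusted p = 0.00318).

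**Figure D1:**
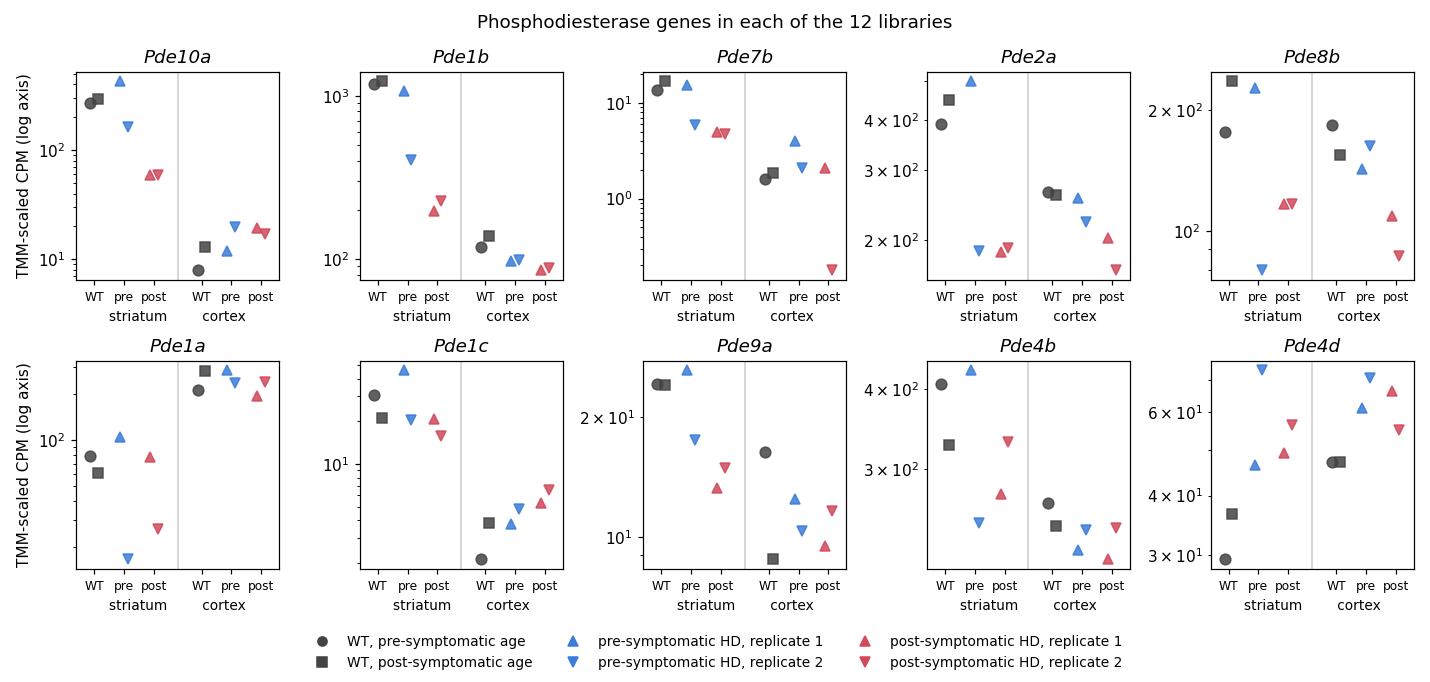
Each panel plots TMM-scaled CPM on a log axis for 1 phosphodiesterase gene, with 1 point for each of the 12 libraries, grouped by region and by WT, pre-symptomatic HD and post-symptomatic HD; the vertical range differs between panels. Pde10a, Pde1b and Pde7b sit higher in striatum than in cortex, and the 2 post-symptomatic HD striatal libraries of Pde10a (58.6 and 59.2 CPM) lie below all 4 other striatal libraries.

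Among the other members, Pde1c, whose enzyme is calmodulin-activated and accepts both nucleotides, had a difference between regions close in size to that of Pde1b. It lay between 15.8 and 45.7 CPM in striatum and between 2.12 and 6.56 CPM in cortex, without overlap, and its log2 fold change was 2.55 (SE 0.320, adjusted p = 0.000230). Its sister gene Pde1a went the other way, with 16.6 to 104 CPM in striatum and 195 to 287 CPM in cortex and a log2 fold change of -2.00 (SE 0.426, adjusted p = 0.0108). The 3 PDE1 genes thus split, with Pde1b and Pde1c higher in striatum and Pde1a higher in cortex. Pde9a, which encodes the cGMP-specific enzyme, was higher in striatum by 0.79 on the log2 scale (SE 0.177, adjusted p = 0.00717), from 13.3 to 26.3 CPM in striatum and from 8.79 to 16.4 CPM in cortex, so that the ranges overlapped. Pde4b, one of the cAMP-specific PDE4 genes targeted by rolipram, was higher in striatum by 0.49 (SE 0.125, adjusted p = 0.0155).

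Pde2a, whose enzyme is activated by cGMP, did not pass, with a log2 fold change of 0.42 (SE 0.209, adjusted p = 0.194), and neither did Pde8b (0.18, SE 0.213, adjusted p = 0.599) or Pde4d (-0.28, SE 0.132, adjusted p = 0.155). Without replicate 2 of pre-symptomatic HD striatum all 10 members passed, where 25.4% of all genes did, and these 3 genes had log2 fold changes of 0.55 (adjusted p = 0.0148), 0.35 (adjusted p = 0.0309) and -0.39 (adjusted p = 0.0197). The call for Pde2a, Pde8b and Pde4d therefore depended on 1 library, while the direction did not.

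**Figure D2:**
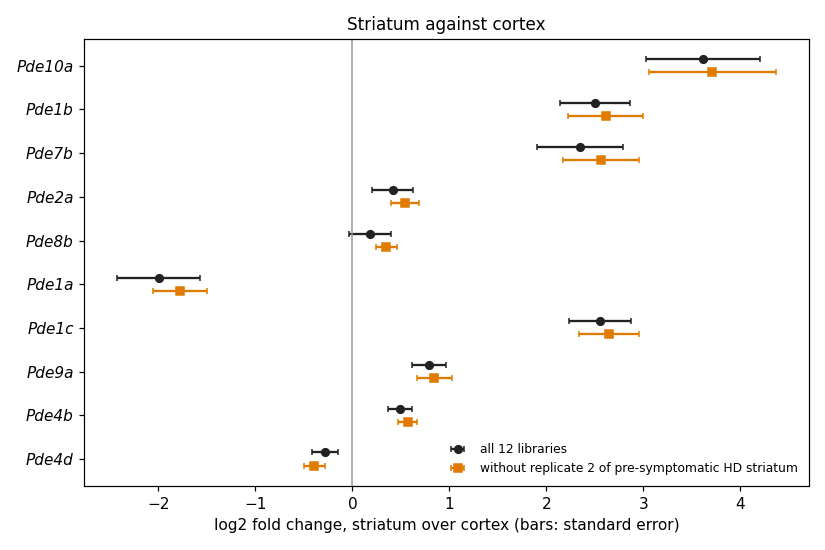
Points are log2 fold changes of striatum over cortex for the 10 genes, bars are standard errors, black circles use all 12 libraries and orange squares leave out replicate 2 of pre-symptomatic HD striatum. Pde10a has the largest difference of the 10 (3.61 with all libraries), Pde1b, Pde1c and Pde7b lie between 2.35 and 2.55, and Pde1a lies at -2.00.

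The promoter windows of the 3 striatal isoforms are shown because these genes were named beforehand as known striatal isoforms. Pde1c, Pde9a and Pde4b were also called higher in striatum, and no window of theirs is shown. On the GRCm38 build, which has the coordinates of mm10, the GENCODE M21 annotation places Pde10a on the plus strand at chr17:8525372-8986648, Pde1b on the plus strand at chr15:103503034-103530052 and Pde7b on the minus strand at chr10:20398004-20725078. All 3 are protein-coding, and no other annotated exon overlaps theirs. The sequences below are RefSeq windows on GRCm38.p6 of 250 bases before to 50 after a start site, read 5′ to 3′ on the strand of the gene, with each GGGCGG (the GC box, on either strand, where the other strand reads CCGCCC) in capitals. They are chr17:8801495-8801794 for Pde10a, chr15:103502784-103503083 for Pde1b and chr10:20548279-20548578 for Pde7b. The Pde1b window is at the annotated start of the gene. Those of Pde10a and Pde7b are at start sites inside the annotated span, and the outermost starts of these genes were not examined.
Pde10a: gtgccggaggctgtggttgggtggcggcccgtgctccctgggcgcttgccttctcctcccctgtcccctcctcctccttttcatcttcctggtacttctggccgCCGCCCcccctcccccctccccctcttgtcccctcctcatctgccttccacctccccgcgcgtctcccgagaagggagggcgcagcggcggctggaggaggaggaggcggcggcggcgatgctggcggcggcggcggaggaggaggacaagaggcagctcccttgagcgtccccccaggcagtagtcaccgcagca
Pde1b: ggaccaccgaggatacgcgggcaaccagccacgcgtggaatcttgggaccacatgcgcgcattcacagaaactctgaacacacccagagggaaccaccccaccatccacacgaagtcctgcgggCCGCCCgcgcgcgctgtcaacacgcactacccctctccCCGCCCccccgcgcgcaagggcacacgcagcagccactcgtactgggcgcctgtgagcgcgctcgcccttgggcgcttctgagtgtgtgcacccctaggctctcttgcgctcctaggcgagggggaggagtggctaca
Pde7b: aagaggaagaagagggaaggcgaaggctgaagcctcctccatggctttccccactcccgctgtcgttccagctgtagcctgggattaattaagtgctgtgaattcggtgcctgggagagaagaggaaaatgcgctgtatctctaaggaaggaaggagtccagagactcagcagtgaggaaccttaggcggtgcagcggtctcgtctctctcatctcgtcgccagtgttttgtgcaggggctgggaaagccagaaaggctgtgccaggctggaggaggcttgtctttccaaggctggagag

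The Pde10a window held 1 GC box, the Pde1b window held 2, 126 and 88 bases before the start site, and the Pde7b window held none. Pde10a had another window, chr17:8849735-8850034, with 1 GC box, and Pde1b had 2 other windows without one. Of the other members higher in striatum, Pde1c had 3 windows and Pde4b had 4, none of them with a GC box. Of all 32851 promoter windows, 35.7% held a GC box. The cAMP response element TGACGTCA was in none of the 28 windows of the 9 members that had one and in 1.79% of all windows. Its shorter form TGACG, which is part of it, was in 1 window each of Pde1a, Pde2a, Pde4b and Pde8b and in 20.8% of all windows. The Egr1 motif GCGTGGGCG was in no member's window and in 0.612% of all windows. Pde9a had no window. These matches describe letters in a window only.

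In post-symptomatic striatum, Pde10a and Pde1b were lower in HD mice than in WT mice by about 5-fold, and in cortex no member passed the test. Because each WT group had 1 library, the comparison with WT mice was first made over both regions together, at 13 weeks, in the fit of all 12 libraries. There 7.36% of 14706 genes passed and 0 of the 10 members did by edgeR, 5 members had an unadjusted p under 0.05, DESeq2 called 2 (Pde1b and Pde2a) and voom, with libraries of the same genotype, age and replicate number as a random block, called 0. The log2 fold changes were -1.54 for Pde1b (SE 0.493, adjusted p = 0.0958), -0.87 for Pde2a (SE 0.304, adjusted p = 0.115), -0.86 for Pde8b (SE 0.311, adjusted p = 0.127), -1.37 for Pde7b (SE 0.620, adjusted p = 0.216), 0.44 for Pde4d (SE 0.201, adjusted p = 0.217) and -0.79 for Pde10a (SE 0.777, adjusted p = 0.621). The median over the 10 members was -0.55 and that over all genes tested was 0.01.

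That fit averages regions in which Pde10a took opposite signs, so each region was also tested on its own, with the WT libraries of both ages taken as 1 group of 2. This choice was made after the data were seen, and it gives every group 1 male and 1 female library. In striatum, 10.3% of genes passed, 5.94% as lower, and 2 of the 10 members passed, both lower. Pde10a was lower in both post-symptomatic HD libraries than in every other striatal library, at 20.8% of the mean of the WT libraries, with a log2 fold change of -2.27 (SE 0.422, adjusted p = 0.0121). Pde1b was at 17.6% of the WT mean, with a log2 fold change of -2.50 (SE 0.357, adjusted p = 0.00345), and its post-symptomatic HD libraries were also below all 4 others. Pde7b was at 31.6% of the WT mean, its log2 fold change was -1.66 (SE 0.664, adjusted p = 0.138), and its HD libraries were likewise below all 4 others.

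For the other members in post-symptomatic striatum, the values ran from 45.1% to 160% of the WT mean. Pde2a had 389.5 and 449 CPM in the WT libraries, 499 and 188 CPM in pre-symptomatic HD libraries and 187 and 191 CPM in post-symptomatic HD libraries. The post-symptomatic libraries were thus below WT but level with replicate 2 of the pre-symptomatic group, and the log2 fold change against WT was -1.15 (SE 0.348, adjusted p = 0.0660). Pde8b, which encodes a cAMP-specific enzyme of high affinity, had 177 and 236 CPM in WT, 227 and 79.8 CPM in pre-symptomatic HD and 116 and 117 CPM in post-symptomatic HD striatum, with a log2 fold change of -0.82 (SE 0.387, adjusted p = 0.211). Pde9a had 24.2 and 24.1 CPM in WT and 13.3 and 14.9 CPM in post-symptomatic HD striatum (log2 fold change -0.78, SE 0.305, adjusted p = 0.128). Pde4b (82.3% of WT), Pde1a (74.0%) and Pde1c (70.6%) did not pass either.

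Pde4d, another rolipram-sensitive PDE4 gene, was the 1 member above WT. It had 29.3 and 36.6 CPM in WT striatum, 46.4 and 73.4 CPM in pre-symptomatic HD striatum and 49.1 and 56.3 CPM in post-symptomatic HD striatum, so that all 4 HD libraries exceeded both WT libraries. The share of all genes with that order in 4 HD libraries was not counted. The log2 fold change of Pde4d after symptom onset was 0.68 (SE 0.221, adjusted p = 0.0756). By order alone, 7 of the 10 members had both post-symptomatic HD striatal libraries below both WT libraries (Pde10a, Pde1b, Pde7b, Pde2a, Pde8b, Pde1c and Pde9a), which held for 30.6% of all genes, and 1 had both above, which held for 28.1%. For 4 members (Pde10a, Pde1b, Pde7b and Pde9a) the post-symptomatic HD libraries were below all 4 other striatal libraries, against 12.9% of all genes.

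Replicate 2 of pre-symptomatic HD striatum is in neither group compared here, but it enters the fit through the estimate of spread and the filter, which passed 15262 genes without it. Without it, 20.3% of genes and 6 of the 10 members passed in striatum. Pde10a (adjusted p = 9.09e-06), Pde1b (8.26e-09), Pde2a (1.23e-05), Pde8b (0.00133) and Pde7b (0.0420) were lower and Pde4d was higher (0.0102), with log2 fold changes that differed by less than 0.01 from those with all libraries. Markers of striatal neurons and of neighbouring tissue moved with these results. The 11 markers summed to 8199 to 8993 CPM in WT striatum and to 2178 to 2263 CPM in post-symptomatic HD striatum. The 9 markers with a mean of at least 5 CPM were at 10.7% to 84.1% of WT, with a median of 19.7%. The 10 members had a median of 57.4%, with the 3 striatal isoforms at 17.6% to 31.6% and the other members at 45.1% to 160%. Choroid plexus markers summed to 84.3 to 116 CPM in post-symptomatic HD striatum against 2.67 to 4.02 CPM in WT striatum, and thalamus markers to 92.2 to 122 against 40.9 to 55.1 CPM. The part of these markers in the result was not tested, and in bulk tissue fewer neurons of a type and less RNA in each neuron cannot be told apart. In the 9 planned comparisons, leaving Rn45s out before library sizes were set changed no call of a member. Those comparisons do not include the fits by region with WT ages pooled.

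**Figure D3:**
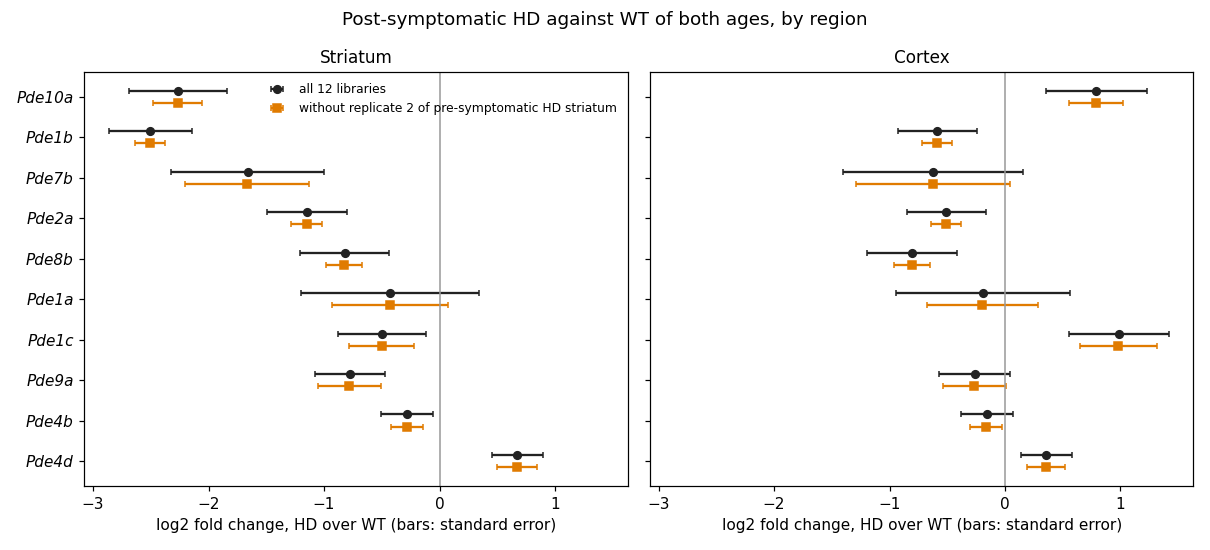
Points are log2 fold changes of post-symptomatic HD over WT of both ages for the 10 genes in striatum (left) and cortex (right), bars are standard errors, black circles use all 12 libraries and orange squares leave out replicate 2 of pre-symptomatic HD striatum. Pde10a and Pde1b lie at -2.27 and -2.50 in striatum, and Pde10a lies at 0.79 in cortex.

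In post-symptomatic cortex, 0 of the 10 members passed by edgeR, where 6.82% of genes did, and 1 member, Pde1c, had an unadjusted p under 0.05. Pde10a had 7.89 and 12.9 CPM in WT cortex and 19.2 and 17.1 CPM in post-symptomatic HD cortex, above both WT libraries, with a log2 fold change of 0.79 (SE 0.436, adjusted p = 0.314). Pde1b was below both WT libraries in all 4 HD cortical libraries, an order whose share over all genes was not counted. Its log2 fold change was -0.58 (SE 0.342, adjusted p = 0.342). Pde8b had 184 and 155 CPM in WT cortex and 109 and 86.4 CPM in post-symptomatic HD cortex (-0.80, SE 0.387, adjusted p = 0.249), and Pde2a had 264 and 259 CPM in WT and 203 and 168 CPM in post-symptomatic HD cortex (-0.51, SE 0.344, adjusted p = 0.415). Without replicate 2 of pre-symptomatic HD striatum 4 members passed in cortex, where 16.6% of genes did: Pde1b (-0.59, adjusted p = 0.00470), Pde2a (-0.51, adjusted p = 0.0144) and Pde8b (-0.81, adjusted p = 0.00227) were lower and Pde10a was higher (0.79, adjusted p = 0.0371). The library left out is in neither cortical group, so these calls came with a changed spread and filter and nearly unchanged log2 fold changes. Replicate 2 of post-symptomatic HD cortex held 3024 CPM of choroid plexus markers, the highest of any library, and its part in these values was not tested. Over both regions at once, Pde1b, Pde2a and Pde8b had every post-symptomatic HD library below every WT library of its region, as did 15.7% of all genes, and Pde4d had every one above, as did 14.6%.

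The difference between the regions was tested directly. On simulated data this test found 3 of 200 genes changed by 1.5 on the log2 scale, and 40% of its 5 calls were false. A gene that does not pass it may therefore still differ between regions. The log2 fold change of post-symptomatic HD against WT at the same age was lower in striatum than in cortex by 2.81 for Pde10a (SE 0.769, unadjusted p = 0.00762) and by 1.83 for Pde1b (SE 0.673, unadjusted p = 0.0274). After adjustment over 15337 genes, 0 of the 10 members and 0% of all genes passed by edgeR (adjusted p = 1.0 for both genes), DESeq2 called 0 members, and 2 members had an unadjusted p under 0.05. Neither library of pre-symptomatic HD striatum is in the groups compared here. Leaving out either one removes the spread of that same pair from the fit. Both genes then passed the threshold at nearly unchanged values, so these are not 2 separate tests of the regional difference. Without replicate 2, 0.446% of genes passed and the adjusted p was 0.00360 for each, at values of -2.81 and -1.83. Without replicate 1 it was 0.00409 for each.

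Within HD mice, the comparison of 13 with 8 weeks showed the lowest fold changes in striatum for the same pair of genes. In striatum 0.16% of 14392 genes passed and 0 of the 10 members did by edgeR, while 2 had an unadjusted p under 0.05 and DESeq2 called the same 2, Pde10a and Pde1b. The log2 fold change was -2.29 for Pde10a (SE 0.436, adjusted p = 0.0971) and -1.77 for Pde1b (SE 0.387, adjusted p = 0.128). The 8-week libraries differed from each other by more than 2-fold for both genes (427 against 162 CPM and 1069 against 404 CPM), and both 13-week libraries lay below the lower of them. Pde2a and Pde8b were level with or above the lower 8-week library after symptom onset and had log2 fold changes of -0.82 (SE 0.384, adjusted p = 0.417) and -0.36 (SE 0.412, adjusted p = 0.778).

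Without replicate 2 of pre-symptomatic HD striatum, 7.02% of genes and 5 of the 10 members passed in this comparison, all lower: Pde10a (-2.86, adjusted p = 6.67e-06), Pde1b (-2.34, adjusted p = 2.44e-06), Pde2a (-1.40, adjusted p = 9.55e-05), Pde1c (-1.32, adjusted p = 0.0159) and Pde8b (-0.96, adjusted p = 0.00287). Without replicate 1 instead, Pde10a and Pde1b passed with smaller changes, -1.45 (adjusted p = 0.00229) and -0.92 (adjusted p = 0.00303). The sign of the Pde10a and Pde1b changes was thus the same against either pre-symptomatic library, while the size depended on which was used.

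**Figure D4:**
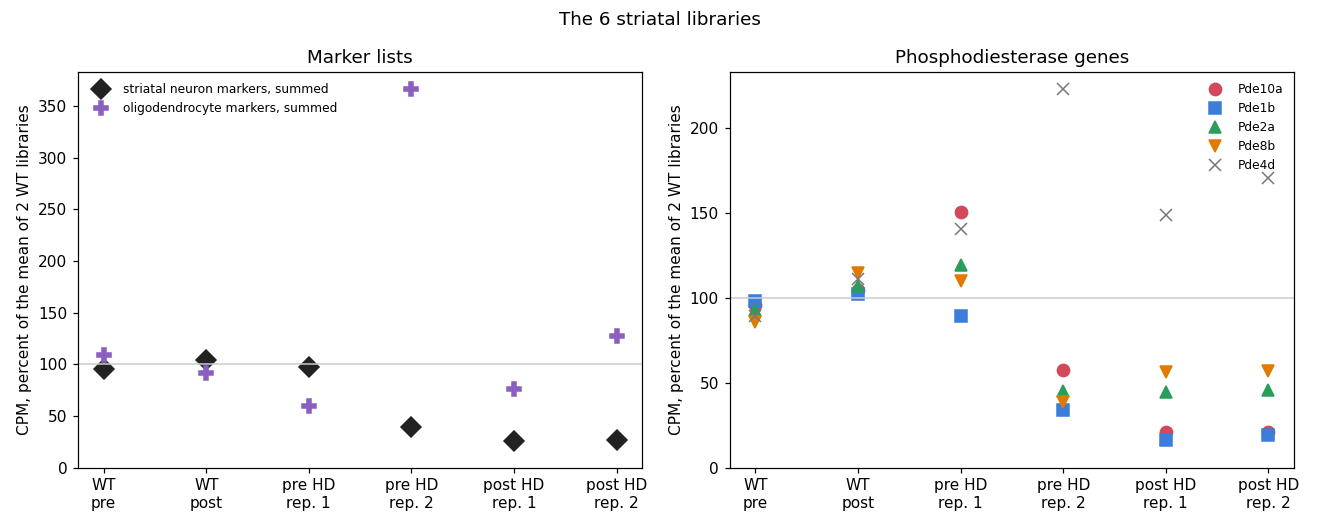
Each point is a CPM value as a percentage of the mean of the 2 WT libraries in 1 of the 6 striatal libraries, for summed striatal neuron and oligodendrocyte markers (left) and for 5 phosphodiesterase genes (right). Replicate 2 of pre-symptomatic HD striatum has the highest oligodendrocyte sum (20930 CPM) and levels of Pde10a (162 CPM), Pde1b, Pde2a and Pde8b below WT, and Pde4d is above both WT libraries in all 4 HD libraries.

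In cortex, 0.591% of genes and 0 of the 10 members changed between 8 and 13 weeks in HD mice by edgeR, and 0 had an unadjusted p under 0.05, 0 passed by DESeq2. The largest differences were those of Pde7b (-1.43, SE 0.884, adjusted p = 0.525), which had at most 38 counts in cortex, and of Pde8b (-0.66, SE 0.413, adjusted p = 0.535). The libraries of pre-symptomatic HD striatum are in neither cortical group. Leaving out either one removes the spread of that same pair from the fit, so calls without them are not separate tests of the cortical change. Pde8b passed without either library of pre-symptomatic HD striatum, at -0.64 (adjusted p = 0.0136, where 7.98% of genes passed) without replicate 2. Over both regions together 6.45% of genes and 0 members passed by edgeR, 2 members (Pde1b and Pde7b) had an unadjusted p under 0.05 and DESeq2 called Pde1b. Pde1b was also the 1 member with every 13-week HD library below every 8-week HD library of its region, as were 11% of all genes. The difference between these changes, striatum minus cortex, was -2.47 for Pde10a (SE 0.613, unadjusted p = 0.00468, adjusted p = 1.0), -1.56 for Pde1b (SE 0.537, adjusted p = 1.0) and -1.27 for Pde1c (SE 0.555, adjusted p = 1.0). By edgeR 0% of all genes and 0 members passed that test, 3 members had an unadjusted p under 0.05, and DESeq2 called Pde10a. On simulated data the edgeR test found 36 of 200 genes changed by 1.5 on the log2 scale, and 16.3% of its 43 calls were false. Without replicate 2 of pre-symptomatic HD striatum, 1.02% of genes and 3 members passed (Pde10a at -3.06, Pde1b and Pde2a). Without replicate 1 instead, Pde10a passed at -1.63 (adjusted p = 0.0276) and Pde8b at 1.22 (adjusted p = 0.0259), the opposite sign to its -0.32 (adjusted p = 0.666) without replicate 2.

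Before symptom onset, no member passed against WT mice of the same age over both regions by edgeR, where 2.1% of genes did. The 1 member with an unadjusted p under 0.05, Pde4d, had a log2 fold change of 0.75 (SE 0.204, adjusted p = 0.0947) and was the 1 member DESeq2 called. Pde4d had 47.1 CPM in each WT cortical library against 61.0 and 70.6 CPM in pre-symptomatic and 66.5 and 55.0 CPM in post-symptomatic HD cortex, so that all 8 HD libraries exceeded both WT libraries of their region. That order held for 9.89% of all genes in pre-symptomatic HD libraries and for 14.6% in post-symptomatic HD libraries. The share of genes with this order in all 8 HD libraries at once was not counted. Pde1b was the 1 member with every pre-symptomatic HD library below every WT library of its region, as were 8.72% of all genes. Pde10a was at 0.39 (SE 0.759, adjusted p = 0.874) and Pde1b at -0.51 (SE 0.491, adjusted p = 0.710). Without replicate 2 of pre-symptomatic HD striatum, Pde10a was at 0.57, Pde1b at -0.32 and Pde4d at 0.59. The median over the 10 members was -0.11 with all libraries and 0.16 without that library. By region, the WT libraries of both ages were again taken as 1 group. There 0 of the 10 members passed in striatum (1.88% of genes) and in cortex (0.694% of genes). In striatum Pde4d was at 0.87 (SE 0.222, adjusted p = 0.0734), Pde10a at 0.06 and Pde1b at -0.69. Without replicate 2 of pre-symptomatic HD striatum these values were 0.50, 0.60 and -0.16. Against the mean of the WT striatal libraries, replicate 1 of pre-symptomatic HD striatum was at 151% for Pde10a, 89.2% for Pde1b and 99.7% for Pde7b, and replicate 2 at 57.2%, 33.7% and 38.6%. The change from 8 to 13 weeks in HD less that in WT mice, which rests on 1 WT library for each region and age, passed for 0.116% of genes and 0 members by edgeR, with 0 at an unadjusted p under 0.05 and 0 by DESeq2.

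The other genes of the pathway were counted in the comparison of HD with WT mice at 13 weeks over both regions. Of 14 other phosphodiesterase genes, 8 passed the filter on low counts and 0 passed the test (0 with an unadjusted p under 0.05), with a median log2 fold change of 0.18. Of all genes tested 4.26% were lower. Of 17 listed cyclase genes 14 were tested, 3 were lower and 0 higher, and the median was -0.33. The 3 were Gucy1a3 (-0.93, SE 0.222, adjusted p = 0.0263), a subunit of the nitric oxide receptor that makes cGMP, and the adenylyl cyclases Adcy2 (-0.87, SE 0.210, adjusted p = 0.0276) and Adcy9 (-0.85, SE 0.223, adjusted p = 0.0387). Of 23 kinase and effector genes 22 were tested, 2 were lower and 0 higher, with a median of -0.15. They were Arpp19 (-2.39, SE 0.333, adjusted p = 0.00350), a cAMP-regulated phosphoprotein, and Ppp1r1b (-2.21, SE 0.328, adjusted p = 0.00474), which encodes the dopamine-regulated phosphatase inhibitor DARPP-32 and is also one of the striatal neuron markers.

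For Arpp19 the order of the groups was the same in both regions. It had 640 and 931 CPM in WT striatum and 113 and 169 CPM in post-symptomatic HD striatum, and 588 and 479 CPM in WT cortex against 109 and 136 CPM in post-symptomatic HD cortex. The post-symptomatic HD libraries of Arpp19 thus lay below all WT libraries in each region, whereas the 2 WT and the 2 post-symptomatic HD libraries of Pde10a had opposite orders in striatum and cortex.

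The genes whose levels ran most like Pde10a were sought over the 12 libraries, as Pearson's r of log2 CPM less the mean of each region, among 10776 genes with a mean of at least 5 CPM. The 5 with the highest r were Cd4 (0.92), Gnb2 (0.90), Anks1b (0.90), Ttc9 (0.89) and Kif3a (0.89). Of the members, Pde1b was nearest (r = 0.82, rank 40), followed by Pde1c (0.75, rank 134) and Pde2a (0.68, rank 336), and Pde4d was the 1 with a negative r (-0.24). The 12 points share genotype, age and the mixed library, so r describes the order of these libraries only. Cd4 had 49.1 and 55.8 CPM in WT striatum, 54.7 and 26.7 CPM in pre-symptomatic HD striatum and 2.79 and 5.47 CPM in post-symptomatic HD striatum.

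Reads of some members may be shared with annotated neighbours. Pde2a, on the plus strand at chr7:101421691-101512827, shares 3955 exonic bases with the same-strand gene Gm45837. Pde8b, on the minus strand at chr13:95024454-95250336, overlaps exons of an antisense gene by 447 bases, and Pde9a, on the plus strand at chr17:31386210-31476310, overlaps those of a pair of antisense genes by 157 and 138 bases. Whether counting used the strand is not given in the sources used here, so their counts carry this uncertainty. Pde4d (chr13:108449948-109953461, plus strand) shares no exon with another annotated gene.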

How the data were processed

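RNA from 12 mouse striatum and cortex samples was sequenced from 3′ ends with the Lexogen QuantSeq kit. The authors deposited raw counts per gene symbol for each library, and the processing notes in the labels name Bowtie2, bedtools and mm10, without versions. The annotation, strand setting and counting rule are not given in the sources used here. Of 23282 rows, 44 repeated a symbol and 4306 held no count in any library. Groups were taken from the labels.

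The counts were tested in R 4.3.3 with edgeR 4.0.16 (TMM factors, filterByExpr at 10 counts, glmQLFit with robust estimation, glmQLFTest), with Benjamini-Hochberg adjustment over all genes tested and a threshold of 0.05. HD stages were compared over the 8 HD libraries, other comparisons over all 12. A WT group of 1 library is assumed to vary like the HD libraries, and striatum and cortex are treated as independent. The replicates of each HD group differed in sex and so came from different mice, and p-values measure the spread between these few samples, sex included. Alternatives were DESeq2 1.42.0, voom (limma 3.58.1) with libraries of the same genotype, age and replicate number as a random block, as if from 1 mouse, which the labels do not state, upper-quartile normalization, other filters, a threshold of 0.01, Rn45s left out, sex as a term, a replicate block, a mean for each of the 8 groups, and each library left out. Testing by region with WT ages pooled was added after the data were seen. No replicate pair was a duplicate, since counts differed beyond sampling error (chi-square 7.23 to 78.2 per degree of freedom). Counts without molecular identifiers give counting error only.

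All members were named. Of the pathway lists, up to 3 genes with the smallest adjusted p-value under 0.05 at 13 weeks against WT were named, as were the 5 genes most like Pde10a. The result of 1 pathway list is not reported here. Members, lists and marker lists were chosen with earlier results of these data known, and Drd2, Gpr6 and Rn45s were picked out once their values were known. The 9 planned comparisons were run with edgeR on simulated data first. DESeq2 and voom were simulated only for HD stages over both regions and for HD against WT at 13 weeks. There 14.0% and 13.1% of DESeq2 calls were false, against 3.72% and 2.3% for edgeR and 5.21% and 12.1% for voom. The fits by region with WT ages pooled and the fits without a library were not simulated.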

Additional observations from a re-analysis of the deposited data

How the results depend on the processing

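The number of members called out of 10 stayed at 0 in the 8 comparisons other than striatum against cortex, and at 7 in that one, with upper-quartile normalization, with no filter, without Rn45s, with voom and a random block of genotype, age and replicate number, and with the replicate block, which changed no call of a member. The deviations of same-numbered HD libraries correlated at 0.0162 to 0.189 between groups, and whether they share a mouse within an age is not stated. They share a sex, so among HD libraries the block is also a block by sex. DESeq2 called 1 member in HD mice at 13 against 8 weeks over both regions, 2 in striatum and 1 in the difference between regions, 2 against WT at 13 weeks (Pde1b and Pde2a) and 1 against WT at 8 weeks (Pde4d). Against WT at 13 weeks, sex as a term gave 2 (Pde2a at -1.10 and Pde7b at -2.03), a mean for each of the 8 groups gave 1 (Pde1b), and the fit by region with WT ages pooled, chosen after the data were seen, gave 2 in striatum and 0 in cortex. In striatum against cortex the count was 5 with a threshold of 0.01 and 5 with a mean for each of the 8 groups, in both cases without Pde1a and Pde4b, and 6 with at least 1 CPM in every library, where Pde7b was not tested.

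Leaving out 1 library at a time gave 0 to 2 calls in HD mice at 13 against 8 weeks over both regions, 0 to 5 in striatum, 0 to 1 in cortex and 0 to 3 in the difference between regions. It gave 0 to 2 against WT at 13 weeks, 0 to 2 in the difference between regions there, 7 to 10 in striatum against cortex, and 0 in the fits of WT at 8 weeks and of the change with age. Every count above that of all libraries came from leaving out replicate 1 or replicate 2 of pre-symptomatic HD striatum. Without a 13-week WT library the difference between regions against WT could not be fitted. Of 1910 values of single members under an alternative, 0 changed sign while called, 39 became called and 4 lost their call. With 1 library in each WT group and 2 in each HD group, the spread behind each test rests mostly on the HD pairs, and Pde7b had only 2 to 38 counts in cortex.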
